A study of Rattus norvegicus with 5 samples.

Results

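Smooth muscle contractile genes were followed in 5 RNA-seq libraries from cultures of rat dorsal root ganglia, which hold the cell bodies of sensory neurons with their glia. The set holds 10 listed genes of the 33014 in the gene-level table: Acta2, Actg2, Tagln, Myh11, Cnn1, Des, Myl9, Lmod1, Cald1 and Tpm2. They were chosen by name, and because Acta2 and Actg2 take lower values in each library from replicate 1 to replicate 5. Differences between these libraries therefore chose the set, and they are described here without a test. The sample codes also carry a running number in replicate order, and the labels do not say what that order stands for; the libraries are treated here as replicates of 1 group.

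The series accompanies an optical electrophysiology platform for screening compounds against chronic pain. Wild-type Sprague Dawley rats of postnatal day 10 gave the ganglia, which were pooled from a litter of 10 pups and dissociated with collagenase and dispase. Each well was seeded with 5000 cells and given phosphate-buffered saline (PBS), a vehicle, 1 day later; RNA was taken after 8 days of culture from 3 pooled wells per sample. All 5 libraries share this genotype, age and treatment, so there is no contrast between conditions. Nothing in the labels ties the samples to separate litters or preparations, so p-values and spread measure differences between these libraries, which may be technical.

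Libraries held between 21596608 and 27913098 estimated reads, with the fewest in replicate 5. Levels are given in TPM, a measure scaled to the same total in each library, which corrects for transcript length and library size. Of the markers of the labelled tissue, 8 of 8 neuronal and 8 of 8 Schwann cell genes were detected in every library, that is, at TPM of at least 1. These are bulk libraries, in which fewer cells of a type and less RNA per cell cannot be told apart.

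Smooth muscle cells contract when myosin filaments pull on actin filaments made of muscle-specific actins. Myosin is switched on by phosphorylation of its regulatory light chain, and calponin, caldesmon and tropomyosin bind along the actin filament. The same genes mark pericytes of small vessels and myofibroblasts, which are fibroblasts that have taken on a contractile state. Many of them are controlled by serum response factor (SRF) with the coactivators myocardin or the myocardin-related factors, through a DNA element called the CArG box, and transforming growth factor beta (TGF-beta) raises their expression in many cells.

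The promoter of Acta2, the gene with the most abundant muscle actin here, shows this element and is printed with the promoter of Cnn1, the member whose level differed most between libraries. Sequences are from RefSeq on build GRCr8, run from 250 bases before to 50 bases after the annotated start, and read 5′ to 3′ along the gene's strand. Capitals mark matches to the CArG box with at most 1 mismatch in its core of 6 A or T bases.

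Acta2, chr1:241172454-241172753, minus strand: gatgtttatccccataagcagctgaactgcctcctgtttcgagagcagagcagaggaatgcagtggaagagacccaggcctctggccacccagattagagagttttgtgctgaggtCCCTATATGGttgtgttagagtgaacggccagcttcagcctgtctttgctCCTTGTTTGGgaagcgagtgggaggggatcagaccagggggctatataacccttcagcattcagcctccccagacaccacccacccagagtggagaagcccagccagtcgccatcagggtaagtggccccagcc
Cnn1, chr8:28908187-28908486, plus strand: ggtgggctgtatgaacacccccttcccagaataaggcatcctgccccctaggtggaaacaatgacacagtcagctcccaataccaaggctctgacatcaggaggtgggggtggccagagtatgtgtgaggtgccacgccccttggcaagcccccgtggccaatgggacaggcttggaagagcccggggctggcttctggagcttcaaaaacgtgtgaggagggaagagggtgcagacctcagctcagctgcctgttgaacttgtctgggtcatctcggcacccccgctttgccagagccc

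Acta2 held 2 such matches, CCCTATATGG beginning 134 bases and CCTTGTTTGG beginning 84 bases before the start. Both carry 1 base in the core that is not A or T, so neither matches the strict form. The element reads the same on both strands and no other motif was searched. Sequences were found for 6 of the 10 members (7 promoters, since Cald1 has more than 1 start), and the promoters of Actg2, Cnn1, Des, Tpm2 and Cald1 held no match in this window. Among all 33469 promoters of the same length, 1.64% held a strict match and 9.42% a match with up to 1 mismatch. A match is a description of letters, and its absence from this window says nothing of binding elsewhere.

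The detection threshold was passed in every library by 9 of the 10 members, against 41.3% of all genes in the table. The exception was Lmod1, which encodes leiomodin, a protein that starts actin filaments in smooth muscle. Mean levels spanned from 150 TPM for Tagln to 0.959 TPM for Lmod1, and the 10 genes summed to 583, 535, 451, 459 and 334 TPM in replicates 1 to 5. The sum was highest in replicate 1 and lowest in replicate 5.

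The muscle actins showed wide spread. Acta2, the smooth muscle alpha actin, stood at 149, 132, 103, 103 and 62.2 TPM in replicates 1 to 5, a mean of 109.7 ± 33.0 TPM (SD, n = 5). Replicates 1 and 2 were high, replicate 5 was low, and replicates 3 and 4 were level: their exact Poisson 95% intervals, which cover counting error only, ran from 98.6 to 108 and from 98.3 to 107 TPM. Replicate 5, at 58.3 to 66.3 TPM by the same interval (940 reads), did not overlap any other library. Actg2, the gamma actin of visceral smooth muscle, was at 24.9, 21.3, 18.6, 17.1 and 9.49 TPM, a mean of 18.3 ± 5.75 TPM, with the same libraries at either end. These levels chose the set, so they are given as a description. The ratio of the Acta2 to the Actg2 level stayed between 5.55 and 6.55 while each gene alone spanned more than 2-fold. Muscle actin transcripts are alike in their coding sequence, and reads shared between them are divided by the quantification model, so the split between Acta2 and Actg2 is uncertain.

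Actin-binding genes varied over a broad range. Tagln, which encodes transgelin (SM22), an actin-bundling protein and early smooth muscle marker, was at 185, 179, 140, 143 and 103 TPM (mean 150 ± 33.2). Replicates 1 and 2 were again high and replicate 5 low. Cnn1, the smooth muscle calponin that restrains myosin, was at 8.43, 7.09, 4.37, 4.91 and 2.71 TPM (mean 5.50 ± 2.27), the widest relative spread of the 10 genes, on 43 to 154 reads per library. Its exact Poisson intervals in replicate 1 (7.15 to 9.87 TPM) and replicate 5 (1.96 to 3.65 TPM) did not overlap. Tpm2, beta tropomyosin, was at 68.7, 57.1, 52.5, 61.7 and 40.7 TPM (mean 56.1 ± 10.5), with replicate 4 above replicates 2 and 3. Cald1, caldesmon, which non-muscle cells also express, was at 102, 99.9, 96.8, 96.2 and 89.3 TPM (mean 96.9 ± 4.91) and had the narrowest spread of the 10. Lmod1 was at 1.13, 1.21, 0.918, 0.952 and 0.590 TPM, on 29 to 64 reads, and the exact Poisson interval of replicate 5 (0.395 to 0.848 TPM) overlapped that of replicate 3 (0.679 to 1.21 TPM). A second annotated gene overlaps Lmod1 and had 47.4% of its level, so its value is uncertain because the strand setting of the counting is not given in the sources used here.

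Myl9 was the highest of the myosin and intermediate filament members. This gene, for the regulatory light chain that is phosphorylated to start contraction, was at 33.8, 28.7, 26.2, 25.1 and 19.4 TPM (mean 26.6 ± 5.25). Myh11, the smooth muscle myosin heavy chain and the most restricted marker of differentiated smooth muscle, was at 5.38, 4.69, 4.19, 4.21 and 3.37 TPM (mean 4.37 ± 0.737). Des, the muscle intermediate filament desmin, was at 4.33, 4.38, 4.21, 3.33 and 3.03 TPM (mean 3.85 ± 0.631), on 77 to 127 reads. Here replicate 4 was nearer to replicate 5 than to replicate 3, but the exact Poisson intervals overlapped. They were 3.48 to 5.05 TPM in replicate 3, 2.73 to 4.01 in replicate 4 and 2.39 to 3.78 in replicate 5.

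**Figure D1:**
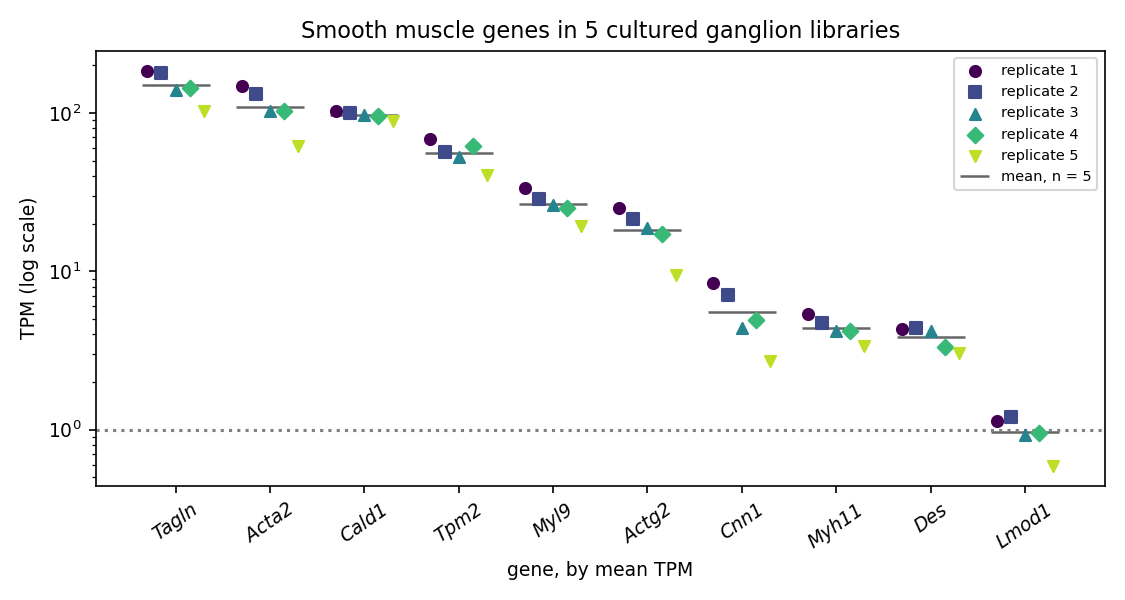
Level in TPM (log axis) of each of the 10 genes in each of the 5 libraries (symbols), with the mean as a bar and the detection threshold of 1 TPM as a dotted line. Replicate 5 is the lowest symbol for every gene, from 103 TPM for Tagln to 0.590 TPM for Lmod1.

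Replicate 5 was the lowest library for 10 of 10 members, and replicate 1 the highest for 8; the exceptions, Des and Lmod1, were highest in replicate 2. Among the genes with mean TPM of at least 1, replicate 5 was lowest for 19.7%, replicate 1 was highest for 22.2%, and both held for 6.32%. A strictly lower value from each replicate to the next was seen in 4 members (Acta2, Actg2, Myl9 and Cald1) and in 1.55% of genes with mean TPM of at least 1. Since this order chose Acta2 and Actg2, nothing is read from the counts.

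In order of level, Tagln was above Acta2 in 5 of 5 libraries, by 1.39-fold on the TPM + 0.1 scale (log2 difference 0.48 ± 0.15, SD, n = 5). Acta2 and Cald1 did not differ beyond their spread: Acta2 was higher in 4 of 5 libraries, with a log2 difference of 0.12 ± 0.41 (exact sign-flip test, two-sided, p = 0.5). Cald1 was above Tpm2, Tpm2 above Myl9, Myl9 above Actg2 and Actg2 above Cnn1 in 5 of 5 libraries each. Among the low members, Cnn1 and Myh11 did not differ beyond the spread (log2 difference 0.24 ± 0.39, exact p = 0.3125). Myh11 was above Des in 4 of 5 libraries (0.18 ± 0.14, exact p = 0.125). Des was above Lmod1 in 5 of 5 libraries. With 5 libraries there are 32 patterns of signs, so the smallest exact p is 0.062, the value of each comparison that held in every library, and no comparison could pass a threshold of 0.05.

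The ratio of the highest to the lowest library, on TPM + 0.1, reached 1.5 in 8 members. It was 3.04 for Cnn1, 2.61 for Actg2, 2.39 for Acta2, 1.89 for Lmod1, 1.80 for Tagln, 1.74 for Myl9, 1.69 for Tpm2 and 1.58 for Myh11, with Des at 1.43 and Cald1 at 1.15. For genes with mean TPM of at least 10, 2.20% reached 1.5, and 5 of the 6 members at that level did so, all but Cald1. At a mean of at least 1 TPM, where counting error is larger, the share was 11.6%, beside 7 of 9 members, and with no filter on level it was 28.2%, beside 8 of 10. A ratio of 2 was reached by 3 members, 2 of them among the 6 of at least 10 TPM, where 0.318% of genes reached it. The median ratio was 1.77 over the members and 1.12 over genes of at least 10 TPM. Without replicate 5, the ratio of the members ran from 1.06 for Cald1 to 1.91 for Cnn1, and Cnn1 alone reached 1.5.

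Counting error made up a small part of this spread for the abundant members. Variation beyond counting error was expressed as the biological coefficient of variation (BCV), the square root of the edgeR dispersion, for 9 members whose reads could be recovered; Cald1 could not be included. The BCV was 31.4% for Acta2, on a mean of 1872 reads whose counting error is 2.31%. It was 32.5% for Actg2, 40.7% for Cnn1, 22.3% for Tagln, 19.0% for Myl9, 17.9% for Tpm2 and 16.3% for Myh11. For Lmod1 (21.1%) and Des (12.8%) the counting error was of like size, at 13.7% and 9.54%. The median BCV over these members was 21.1%, and over the 8871 genes fitted, which are not matched on level, it was 3.35%. The edgeR trend for genes of like read level gave from 4.22% for Acta2 to 11.2% for Lmod1. For Des the trend gave 9.61%, near its own 12.8%. Leaving out replicate 5 brought the median dispersion of the members from 0.0446 to 0.0146.

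**Figure D2:**
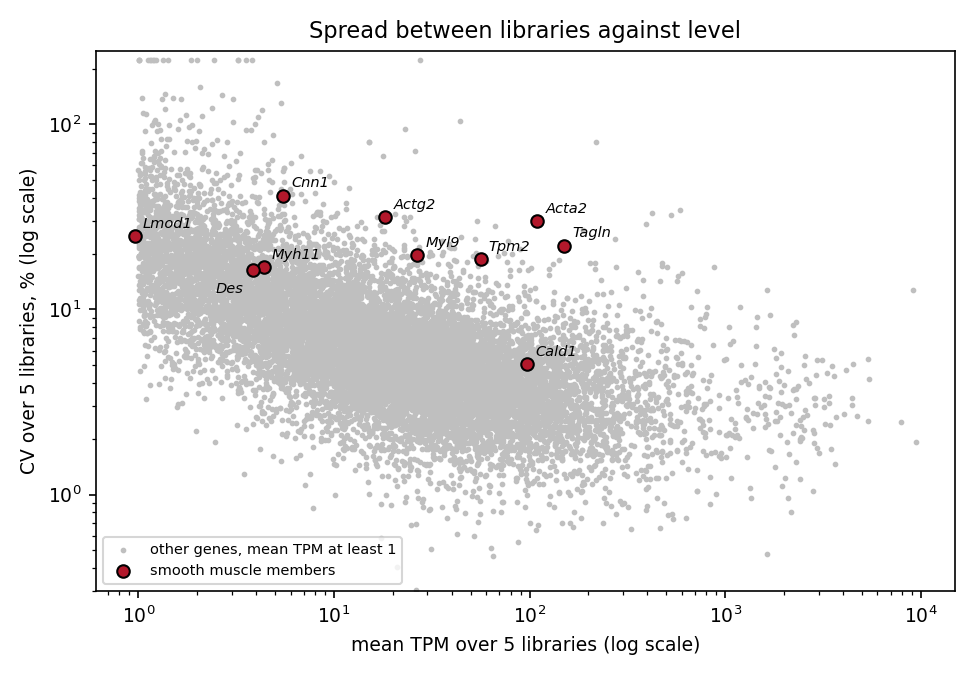
Coefficient of variation over the 5 libraries (percent, log axis) against mean TPM (log axis) for genes of mean TPM at least 1 (grey) and the 10 smooth muscle genes (red). Acta2 (30.0%), Actg2 (31.4%) and Tagln (22.2%) sit above most genes of their level, while Cald1 (5.07%) lies within the main cloud.

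Members also moved by unequal amounts. On the log2(TPM + 0.1) scale, the difference between highest and lowest library was 1.60 for Cnn1, 1.38 for Actg2 and 1.255 for Acta2, against 0.84 for Tagln, 0.80 for Myl9, 0.76 for Tpm2, 0.66 for Myh11, 0.52 for Des and 0.20 for Cald1. The Acta2 level per Tagln level was 0.801 in replicate 1 and 0.603 in replicate 5. Tagln and Myl9 kept closer to each other, at a ratio between 5.33 and 6.23. A member score was formed as the mean, over the 9 detected members, of log2(TPM + 0.1) after subtracting each gene's mean. It was 0.37, 0.21, -0.02, -0.03 and -0.52 in replicates 1 to 5. Without Acta2 and Actg2 the score was 0.33, 0.18, -0.04, -0.03 and -0.44, with the same libraries highest and lowest. The median of all genes of at least 10 TPM, centred in the same way, stayed between -0.02 and 0.02 in every library.

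In Actg2, Tpm2, Myl9 and Myh11, 1 annotated transcript carried most of the gene's level. For Actg2, transcript NM_012893.1 held 81.8% of the gene's TPM and was at 20.1, 18.7, 15.0, 14.6 and 6.36 TPM in replicates 1 to 5. The other Actg2 transcript, XM_006236728.3, was at 4.81, 2.59, 3.65, 2.45 and 3.13 TPM, so replicate 5 was not its lowest library. For Tpm2, NM_001024345.2 held 84.3% and was lowest in replicate 5 at 32.9 TPM. For Myl9, NM_001100885.2 held 91.4% and was also lowest in replicate 5, at 19.1 TPM. Cald1 was divided more evenly, with 40.9% in NM_013146.3 and 26.0% in XM_006236260.4, and part of its level lay in transcripts that the reference table did not name. Transcripts of 1 gene share most of their sequence, so their split rests on the quantification model.

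Of the smooth muscle genes, 9 were next set against a relative within the same library. The rule that chose the set did not use this comparison of levels, but the pairs were chosen with earlier results of these data known. The relatives were listed as non-muscle counterparts. Tpm1, the relative of Tpm2, is also listed here among the contractile partners, so that pair does not set muscle against non-muscle. All 9 stood below their relative in 5 of 5 libraries, each at the smallest exact sign-flip p that 5 libraries allow (0.062, two-sided, and the same after Benjamini-Hochberg adjustment over 10 pairs). Acta2 was 26.6-fold below the cytoplasmic actin Actb (log2 ratio -4.73 ± 0.48, SD, n = 5), and Actg2 was 167-fold below Actg1 (-7.38 ± 0.50). The tenth pair, Acta2 over Actg2, had a log2 ratio of 2.59 ± 0.09. Myh11 was 30.2-fold below the non-muscle myosin Myh9 (-4.92 ± 0.21), Cnn1 119-fold below Cnn3 (-6.90 ± 0.61) and Lmod1 60.7-fold below the tropomodulin Tmod3 (-5.92 ± 0.37). The gap was smaller for Tagln below Tagln2 (7.33-fold, -2.87 ± 0.34), Myl9 below Myl12b (9.13-fold, -3.19 ± 0.29) and Tpm2 below Tpm1 (3.22-fold, -1.69 ± 0.22). Des was far below the intermediate filament gene Vim (-10.99 ± 0.24).

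Each relative varied less between libraries than its smooth muscle gene. The coefficient of variation of the relatives was 2.22% for Actb, 1.79% for Actg1, 1.23% for Tagln2, 3.00% for Myh9 and 2.99% for Cnn3. It was 2.47% for Vim, 2.36% for Myl12b, 4.51% for Tmod3 and 5.03% for Tpm1. The median over all genes of mean TPM at least 10 was 4.49%. Of the 16 detected genes on the wider list of non-muscle counterparts, 0 reached a ratio of 1.5 between libraries. The share was 2.20% among genes with mean TPM of at least 10. Replicate 5 was lowest for 4 of the 16, beside 19.7% of genes with mean TPM of at least 1. Tpm1, which is also on the list of contractile partners, was among the 4.

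As shares of family TPM, Acta2 made up 2.50%, 2.25%, 1.77%, 1.72% and 1.09% of all actin transcripts in replicates 1 to 5. Actb and Actg1 held 47.8% ± 0.925 and 49.9% ± 0.485 (SD, n = 5), and the skeletal and cardiac actins Acta1 and Actc1 held 0.0418% and 0.0606%. Tagln made up 13.7% of transgelin transcripts in replicate 1 and 7.97% in replicate 5. Tpm2 was 4.23% ± 0.646 of tropomyosin transcripts, Myl9 3.83% ± 0.731 of regulatory light chains, Myh11 2.30% ± 0.360 of the myosin II heavy chains counted here, and Cnn1 0.737% ± 0.291 of calponins.

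**Figure D3:**
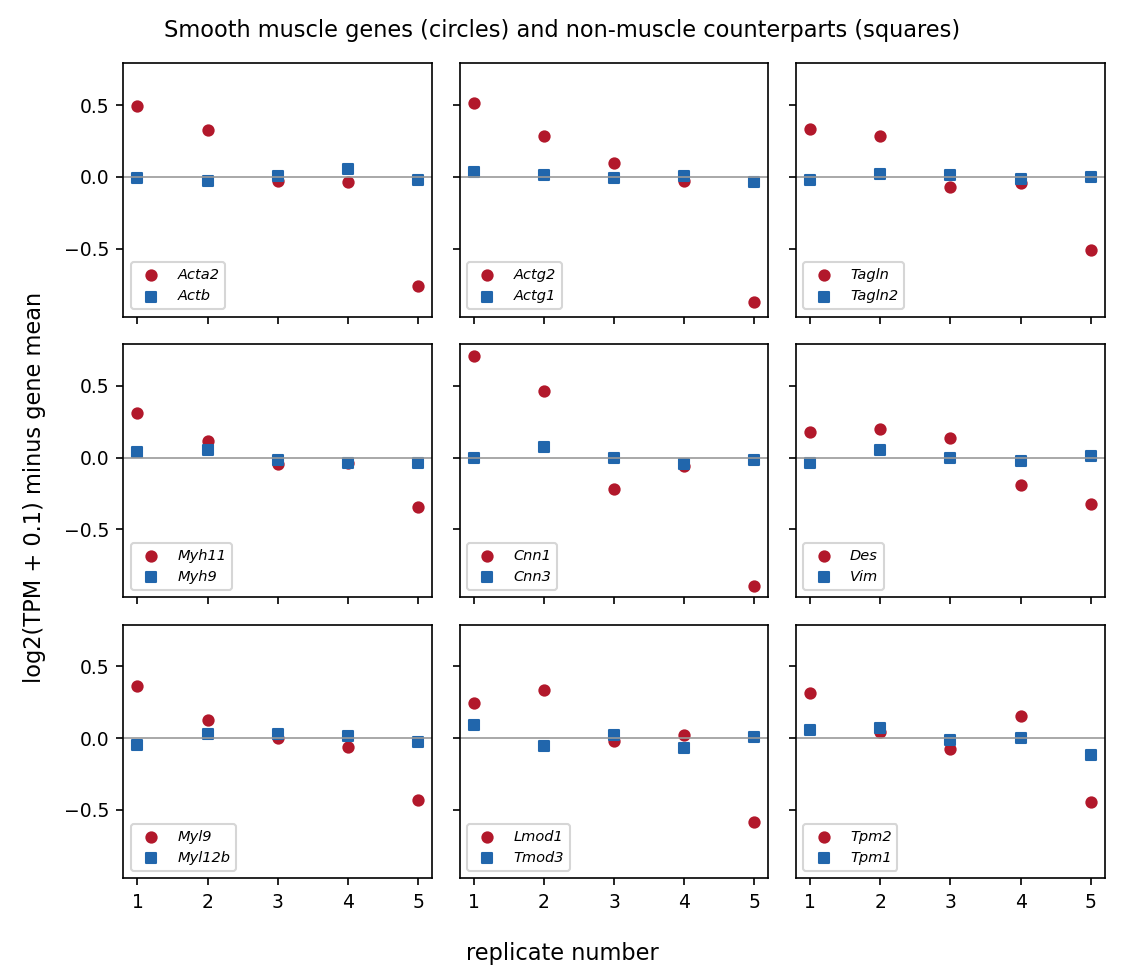
Each panel plots log2(TPM + 0.1) minus the gene's mean for 1 smooth muscle gene (red circles) and its relative (blue squares) in the 5 libraries. Tpm1, the relative of Tpm2, is also a contractile partner gene. The blue squares stay near 0 while the red circles reach their lowest point in replicate 5 in every panel.

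Other genes of the contractile apparatus were led by members shared with non-muscle cells. Of 20 partners listed, 16 were detected, with Csrp1 (568 ± 13.3 TPM), an actin-associated LIM protein, Tpm1 (179 ± 8.98) and the actin crosslinker Flna (145 ± 3.64) among the highest. A ratio of 1.5 between libraries was reached by 3 of the 16, beside 11.6% of genes with mean TPM of at least 1. Replicate 5 was lowest for 8 of the 16, beside 19.7% of those genes. The 3 partners at a ratio of 1.5 were Fhl2, Pgm5 and Ppp1r14a. Fhl2 was highest in replicate 1 (36.9 TPM) and lowest in replicate 5 (24.2 TPM). Pgm5 was highest in replicate 2 (2.03 TPM) and lowest in replicate 5 (1.24 TPM). Ppp1r14a was highest in replicate 1 (19.5 TPM) but lowest in replicate 3 (11.7 TPM). The score of the partner list was 0.05, 0.08, -0.03, 0.00 and -0.10 in replicates 1 to 5, a range of 0.17 against 0.89 for the members. Mylk, the kinase that phosphorylates the light chain, was at 2.04 ± 0.194 TPM, and Smtn, smoothelin, at 10.02 ± 0.522 TPM. Synpo2, Ldb3, Kcnmb1 and Hspb7 stayed under the detection threshold in at least 1 library.

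Of 10 transcription factors and coactivators listed for this programme, 9 were detected. Srf was at 21.0 ± 0.999 TPM, and the myocardin-related factor genes Mrtfa and Mrtfb at 14.2 ± 0.987 and 7.09 ± 0.618 TPM. Myocd, the coactivator myocardin, was undetected at 0.0610 ± 0.0234 TPM. The 9 detected factors were led by Tead1 (72.1 ± 2.47 TPM). Of these 9, 0 reached a ratio of 1.5, beside 11.6% of genes with mean TPM of at least 1. Replicate 5 was lowest for 3 of the 9, beside 19.7% of those genes. Among the 3 was Foxs1, a forkhead factor gene, at 8.03, 6.92, 6.15, 6.08 and 5.70 TPM in replicates 1 to 5.

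All 11 TGF-beta genes were detected, led by the matrix gene Fn1 (297 ± 11.5 TPM) and the receptor gene Tgfbr2 (193 ± 4.86 TPM). The ratio of 1.5 was reached by 2 of them, beside 11.6% of genes with mean TPM of at least 1. Ccn2, a matricellular growth factor and target of the pathway, was 1 of the 2. Ccn2 was at 44.4, 44.4, 34.5, 39.0 and 28.7 TPM in replicates 1 to 5. Replicate 1 was its highest library and replicate 5 its lowest. Tgfb3 shared this order at its ends (19.9 and 14.1 TPM), while Tgfb1 was lowest in replicate 2 and Postn, a target expressed by fibroblasts, lowest in replicate 1.

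The likeness of other genes to Acta2 was measured as the root mean square distance between gene-centred log2(TPM + 0.1) values over the 5 libraries, among 9424 genes of mean TPM at least 10. The median distance was 0.43, the same as that of a gene with no variation between libraries (0.43). Of the 10 nearest genes out of 9424, 4 were members, with Actg2 first (0.08), Tagln second (0.14), then Myl9 (0.18) and Tpm2 further down (0.22). At that level there were 6 members, counting Acta2 itself. The shared fall of Acta2 and Actg2 chose the set, so the place of Actg2 follows from that choice and nothing is read from it. The others included Ccn2 (0.21), the long noncoding RNA LOC108352161 (0.21), LOC100362149 (0.24), the matrix proteoglycan gene Prelp (0.25) and Apod (0.25), a lipid carrier gene. Apod was at 613, 472, 452, 461 and 381 TPM in replicates 1 to 5. Cald1 was the 358th nearest gene. Members under 10 TPM were not ranked, and their distances were 0.16 for Cnn1, 0.14 for Lmod1, 0.22 for Myh11 and 0.27 for Des. Likeness over 5 libraries is a description, and these genes share their libraries.

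Markers of other cells that carry contractile genes did not all take the members' pattern. Beside the counts below, 11.6% of genes with mean TPM of at least 1 reached a ratio of 1.5, and 19.7% were lowest in replicate 5. Of 8 pericyte genes 5 were detected, none with a ratio of 1.5, and their summed level was 402 to 485 TPM. Mcam, an adhesion molecule gene, held most of that sum (347 ± 34.5 TPM) and was lowest in replicate 4. Pdgfrb was at 36.9 ± 2.38 TPM and lowest in replicate 1. Anpep (50.9 ± 3.06 TPM) was highest in replicate 1 and lowest in replicate 5, the 1 detected pericyte gene lowest there. The pericyte score was lowest in replicate 5 (-0.05) and highest in replicate 2 (0.04). The pericyte genes Rgs5 and Kcnj8 were near the limit of detection, at 0.530 ± 0.620 and 0.517 ± 0.179 TPM, and Rgs5 was listed at 0 in replicates 2 and 4. Fibroblast genes (8 of 8 detected) summed to 1707 to 1752 TPM, and replicate 5 was lowest for 1 of them. Of 8 skeletal muscle genes 2 were detected, summing with the rest to 5.99 to 7.39 TPM, and Myog and Myod1 were near 0. Of 6 cardiac genes 4 were detected, and the list sum was highest in replicate 1 (18.9 TPM) and lowest in replicate 5 (15.4 TPM). The cardiac score over detected genes was highest in replicate 1 (0.22) and lowest in replicate 4 (-0.16). Replicate 5 was lowest for 0 of the detected cardiac genes. Endothelial genes (3 of 8 detected) summed to 25.7 to 28.8 TPM. Their part in the members' spread was not tested.

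Lists of the ganglion's own cells differed between libraries in other ways. Schwann cell genes summed to 6870 TPM in replicate 1 and to 7625 to 7921 TPM in the others. Satellite glia genes, dominated by Apoe, summed to 8429 and 8335 TPM in replicates 1 and 2 and to 10154, 10350 and 10925 TPM in replicates 3, 4 and 5, a difference carried by Apoe (7927 and 7852 TPM against 9628 to 10409 TPM). Glul was also lower in replicates 1 and 2 (234 and 221 TPM) than in replicates 3, 4 and 5 (252 to 257 TPM). The remaining satellite glia genes took other patterns, and Kcnj10 was highest in replicate 2 at 32.9 TPM and Gja1 lowest in replicate 3 at 30.6 TPM. Macrophage genes summed to 1198 TPM in replicate 2 and to 1597 to 1896 TPM in the others. A ratio of 1.5 was reached by 7 of 8, beside 11.6% of genes with mean TPM of at least 1. None was lowest in replicate 5, beside 19.7% of those genes. Cx3cr1 differed from the list, with replicate 1 highest (3.18 TPM) and replicate 4 lowest (1.52 TPM). Neuronal genes summed to 6826 to 7226 TPM. A ratio of 1.5 was reached by 0 of 8, beside 2.20% of genes with mean TPM of at least 10. Proliferation genes (8 of 8 detected) summed to 135 to 154 TPM. The part of these differences in the members' spread was not tested.

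**Figure D4:**
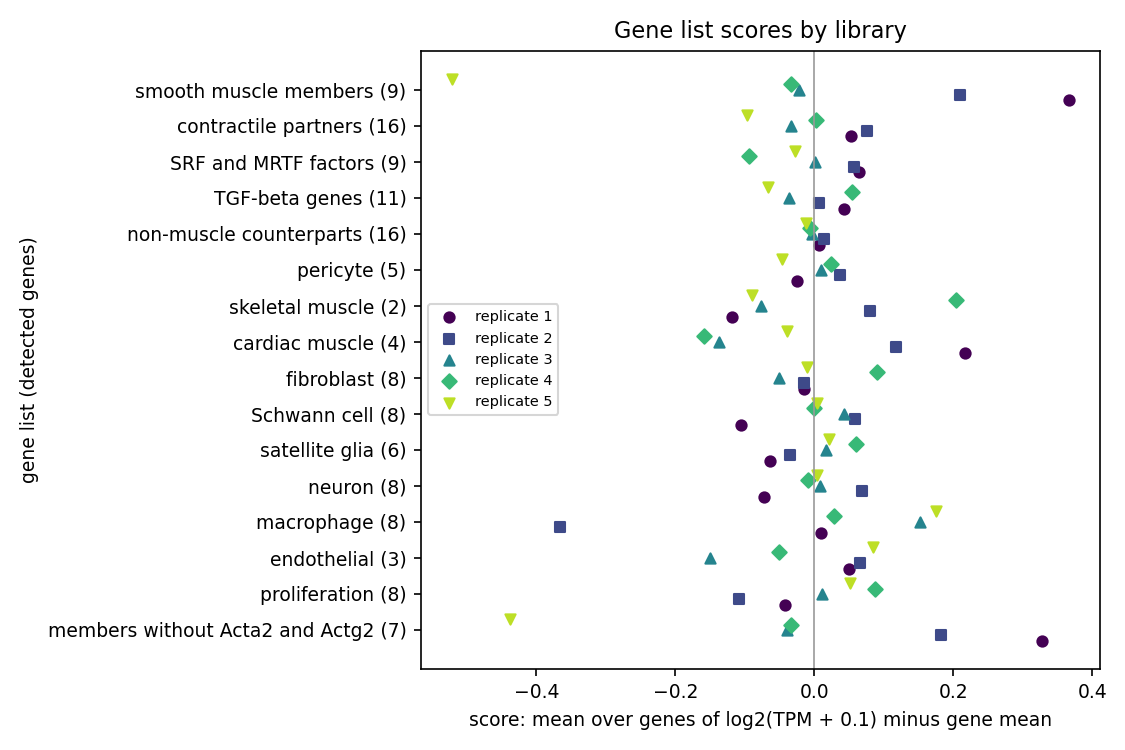
Score of each gene list (mean over its detected genes of log2(TPM + 0.1) minus the gene's mean) in each of the 5 libraries (symbols), with the number of detected genes in brackets. The smooth muscle members run from -0.52 in replicate 5 to 0.37 in replicate 1, and among the lists without these genes macrophage genes have the widest range, with replicate 2 lowest at -0.37.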

How the data were processed

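RNA was sequenced from 5 samples of 1 group after poly-A selection. Per the submitters' processing notes, Trim Galore 0.6.6, cutadapt 2.8 and Salmon 1.5.1 were used with build mRatBN7.2 (strand setting and annotation: not given in the sources used here). Gene-level TPM came from the authors' combined table, in which each library sums to the same total. The deposited quantification files give, per the file headers, TPM and estimated counts of reads for 98811 transcripts, of which 67330 were named through a RefSeq GRCr8 table. Estimated counts summed per gene were used where named transcripts gave the authors' TPM within 10% in every library (13805 genes, 9 members) and were rounded to whole numbers.

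Spread was fitted with edgeR 4.0.16 (TMM, filterByExpr, intercept only) without shrinkage of the dispersion, chosen after simulated data showed that the default pulled high values down. Ratios used a pseudocount of 0.1 and an exact sign-flip test. With 1 group, no test between conditions was made. Genes named are the members, their relatives, up to 4 highest genes of each list, the 10 genes nearest Acta2, and others picked with their values in view. Not every gene so selected is reported here. Members, lists and pairs were chosen with earlier results of these data known. Alternatives covered thresholds, pseudocounts, transcript sums, scaling and each library left out.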

Additional observations from a re-analysis of the deposited data

How the results depend on the processing

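Of 80 alternative values of the pairs, which were judged on direction alone, 79 kept it. Moving the pseudocount to 1 shifted these log2 ratios by up to 0.89. Leaving out 1 library in turn gave 1 to 8 members with a ratio of at least 1.5 (8 with all libraries), a member score range of 0.40 to 0.89 (0.89), a median dispersion of 0.0146 to 0.0655 (0.0446) and 9 detected members each time. The lowest values came without replicate 5. A ratio of at least 2 was reached by 3 members, and a pseudocount of 1 left 6 at 1.5. Detection at 5 TPM left 6 members. Default edgeR shrinkage, chosen after seeing the data, gave a median dispersion of 0.0188. With sums of named transcripts the Myh11 over Myh9 log2 ratio turned to 5.47, because no transcript of Myh9 was named and its sum was 0. Without Acta2 and Actg2 the score range was 0.77. Depth limits Lmod1, Cnn1 and Des most. No paired analysis was possible because the samples form 1 group.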
